A study of Mus musculus with 75 samples.

Results

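Natural killer (NK) cells and cytotoxic T cells kill target cells by releasing granules, and 8 genes of this machinery were followed in the lung of the bleomycin (BLEO) mouse model of idiopathic pulmonary fibrosis (IPF). The members were taken by name as the rows of the count table for Gzma, Gzmb, Gzmk, Prf1, Nkg7, Klrd1, Ncr1 and Eomes, 8 of the 55536 genes listed. The right lung's inferior lobe gave RNA of 75 male C57BL/6JRj mice, with 1 library per mouse. CTRL comprised 10 mice whose labels read saline, while the treatment text calls the controls untreated. The age listed is 12 to 14 weeks for CTRL and BLEO-IPF mice alike, for the latter at instillation. BLEO-IPF mice had received bleomycin sulphate into the trachea, a single time, and were terminated on 1 of 6 days. There were 10 mice on day 7, 7 mice on day 42, and 12 mice on each of the days 14, 21, 28 and 35. The labels give no day for CTRL mice, so the comparisons with CTRL cannot be taken as matched in time. The model covers a selected part of the response, because a mouse entered a BLEO-IPF group only if its weight loss in the first week was mild to moderate, and because each lung had been rinsed to collect lavage fluid before the lobe was taken. Libraries held 9240291 to 14665247 counts, with a median of 10677163, and no sequencing batch is named. Of the 8 members, 7 had counts in every mouse and passed the filter on low counts; Gzmk did not pass, with 217 counts over all 75 mice.

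NK cells recognize stressed or infected cells through a balance of activating and inhibitory surface receptors, and they need no prior exposure to an antigen. Upon recognition they release perforin, which opens the target cell membrane, and granzymes, which are serine proteases that enter the target and trigger its death. CD8 T cells use the same granules, and the lung is among the tissues in which NK cells are most plentiful in the healthy mouse. In whole tissue, fewer cells of a type and less RNA per cell cannot be told apart.

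The members differ in how closely they mark NK cells. Ncr1 encodes NKp46, an activating receptor that is largely restricted to NK cells and type 1 innate lymphoid cells. Klrd1 encodes CD94, the partner of the NKG2 receptors, and is also made by activated CD8 T cells. Eomes encodes a T-box transcription factor of NK cells and CD8 T cells. Gzma, Gzmb and Gzmk encode granzymes A, B and K, Prf1 encodes perforin, and Nkg7 encodes a protein of the granule membrane. Per kilobase (kb) of exon, the median level in CTRL mice was 17.2 CPM (counts scaled to the library size, adjusted by TMM factors) for Gzma, 7.99 for Nkg7, 5.90 for Klrd1, 3.56 for Ncr1, 3.13 for Prf1, 2.88 for Gzmb, 0.71 for Eomes and 0.024 for Gzmk. Granzyme A thus led the order, and granzyme K lay close to the detection limit in healthy lung.

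The bases just upstream of 4 members that fell after BLEO are shown because T-box and RUNX factors, which act in NK cells, recognize short motifs of this kind. The sequences are those of RefSeq for build GRCm38.p6, read 5′ to 3′ on the strand of the gene and ending at the last base before its RefSeq start, or for Prf1 its Ensembl start. Capitals mark the T-box site TCACAC, the RUNX site TGTGGT and the AP-1 site TGANTCA, each searched on both strands, so that GTGTGA and ACCACA are the first 2 read from the other strand.
Ncr1 (chr7:4337465-4337714, + strand): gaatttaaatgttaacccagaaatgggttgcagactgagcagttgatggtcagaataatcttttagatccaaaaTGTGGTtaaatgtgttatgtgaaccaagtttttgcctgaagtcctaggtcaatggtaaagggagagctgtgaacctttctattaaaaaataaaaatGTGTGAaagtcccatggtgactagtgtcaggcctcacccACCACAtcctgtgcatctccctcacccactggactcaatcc
Gzma (chr13:113100982-113101231, - strand): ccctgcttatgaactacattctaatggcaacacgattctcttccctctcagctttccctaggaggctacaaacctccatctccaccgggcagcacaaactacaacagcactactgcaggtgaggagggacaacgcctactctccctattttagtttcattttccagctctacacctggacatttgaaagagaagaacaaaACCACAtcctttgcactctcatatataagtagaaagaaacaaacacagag
Gzmb (chr14:56262335-56262584, - strand): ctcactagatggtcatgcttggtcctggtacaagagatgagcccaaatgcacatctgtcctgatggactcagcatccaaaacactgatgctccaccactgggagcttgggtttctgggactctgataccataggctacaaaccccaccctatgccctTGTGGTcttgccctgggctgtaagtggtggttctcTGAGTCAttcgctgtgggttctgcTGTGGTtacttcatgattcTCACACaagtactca
Prf1 (chr10:61297586-61297832, + strand): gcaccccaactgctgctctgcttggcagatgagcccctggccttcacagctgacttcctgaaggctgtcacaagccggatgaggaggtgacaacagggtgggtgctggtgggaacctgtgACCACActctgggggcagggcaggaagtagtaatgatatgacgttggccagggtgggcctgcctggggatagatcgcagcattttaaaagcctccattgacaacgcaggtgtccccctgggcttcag
The Prf1 window has 247 bases, since 3 bases that lie inside the Ensembl gene were left off. The RUNX letters stood in all 4 windows, at 2 places in Ncr1 and in Gzmb. The T-box letters stood in Ncr1, between 80 and 75 bases before its RefSeq start, and in Gzmb, between 15 and 10 bases before its own. The AP-1 letters stood in Gzmb, between 58 and 52 bases before the RefSeq start. Ncr1 has 2 entries in RefSeq, of which the first was used. The Ensembl starts of Ncr1 and Gzmb lie further downstream, so distances to them are longer. Over 27025 genes with an entry, the first 250 bases of the window held the RUNX letters in 14.2%, the T-box letters in 12.2% and the AP-1 letters in 6.9%. The marked letters do not overlap in these windows, and they are a description of the sequence, not of binding.

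On every day after BLEO, the fitted levels of the 7 tested members were below CTRL, and 0 of them were called higher. Gzmk did not pass the filter and is described on its own below. On day 7, 6 of the 7 tested members were called lower (edgeR's quasi-likelihood test, Benjamini-Hochberg adjusted p under 0.05 over 16221 genes), against 20.9% of all genes tested. On day 14 it was 7 of 7, against 29.9% of all genes, and on day 21 again 7 of 7, against 25.8%. On day 28, 6 of 7 were lower (19.2% of all genes), on day 35 4 of 7 (13%) and on day 42 4 of 7 (11.0%). The median log2 fold change (log2FC) of the 7 members over the 6 days in order was -0.87, -1.16, -1.03, -0.995, -0.72 and -0.81. The 6 comparisons share the same CTRL mice. On no day did a tested member have all its mice above all CTRL mice, as 7.39%, 9.46%, 6.84%, 2.10%, 2.43% and 4.22% of all genes had over the days in order. Members called on day 42 depended on the filter and on single mice, as given with each gene.

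**Figure D1:**
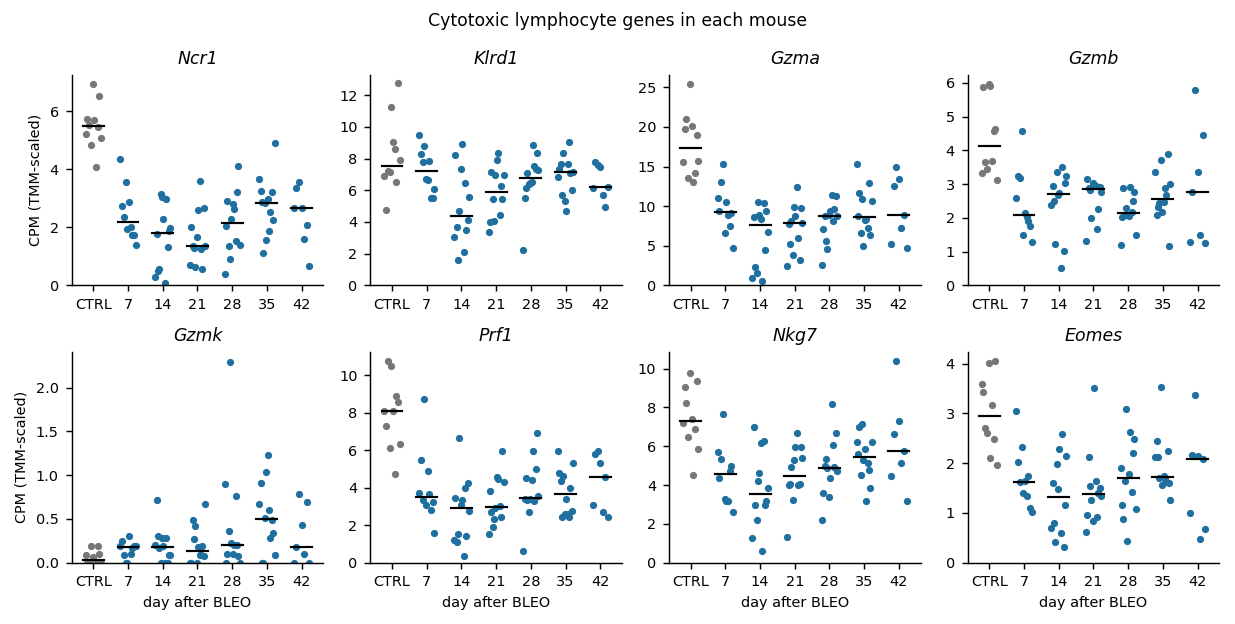
CPM scaled by TMM factors (y axis) of the 8 members in each mouse, by group (x axis: CTRL, then day after BLEO); each point is 1 mouse and the bar is the group median. All Ncr1 values on days 14, 21 and 42 lie below the lowest CTRL value of 4.09, and Klrd1 overlaps CTRL on all days. Gzmk is low in all groups, with a median of 0.034 CPM in CTRL and 0.49 on day 35. On that day 9 of 12 mice lie above all CTRL mice.

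Ncr1, the NK cell receptor gene (chr7:4337724-4345164, + strand, GRCm38), had the lowest log2FC of the members on all days but day 35, when Prf1 did. Its level ranged from 4.09 to 6.92 CPM in CTRL mice, with a median of 5.49. On day 7 it ranged from 1.39 to 4.34 with a median of 2.19, and on day 14 from 0.084 to 3.13 with a median of 1.82. On day 14 the mouse at the bottom of that range had 1 count of Ncr1 in its whole library. On day 21 the range was 0.56 to 3.59 with a median of 1.35, and on day 28 it was 0.40 to 4.13 with a median of 2.16. Day 35 gave 1.13 to 4.91 with a median of 2.84, and day 42 gave 0.68 to 3.55 with a median of 2.66. The groups did not overlap with CTRL on days 14, 21 and 42, which was the case, in this direction, for 6.15%, 4.85% and 3.37% of all genes tested. On days 7, 28 and 35 a single mouse reached into the CTRL range, while 3.80%, 1.34% and 1.34% of all genes had every mouse below. The log2FC was -1.15 ± 0.31 (SE) on day 7 (adjusted p = 0.00145), -1.73 ± 0.30 on both day 14 (9.67e-07) and day 21 (1.52e-06), and -1.36 ± 0.29 on day 28 (0.000138). It was -0.99 ± 0.29 on day 35 (0.00574) and -1.21 ± 0.35 on day 42 (0.00743). The day 14 value is a 3.31-fold lower level. The 6 calls held under every alternative and without any single mouse. In the order of its group means, CTRL differed from the next highest, day 35, while no 2 neighbouring BLEO-IPF groups passed the test.

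Klrd1, the other receptor gene (chr6:129591782-129598775, + strand), changed less. CTRL mice ranged from 4.77 to 12.7 CPM with a median of 7.55, and day 7 mice from 5.50 to 9.51 with a median of 7.24, so that the groups overlapped almost fully. The log2FC on day 7 was -0.17 ± 0.19 (adjusted p = 0.469). On day 14 the range was 1.62 to 8.90 with a median of 4.38, and 7 of 12 mice lay below all CTRL mice. Klrd1 fell by 0.73 ± 0.18 on the log2 scale on day 14 (adjusted p = 0.000399) and by 0.48 ± 0.18 on day 21 (0.0205). The day 21 call rested on CTRL replicate 9, without which the log2FC was -0.39 (adjusted p = 0.0694). Medians on days 21, 28, 35 and 42 were 5.86, 6.80, 7.12 and 6.18 CPM, and the last 3 days did not pass the test, with log2FC values between -0.32 and -0.25.

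Gzma, granzyme A (chr13:113093825-113100981, - strand), was called lower on all 6 days. CTRL mice ranged from 13.1 to 25.4 CPM with a median of 17.4. Day 14 mice ranged from 0.50 to 10.5 with a median of 7.59, the widest relative spread of any day, with a coefficient of variation of 64.1% against 22.2% in CTRL. Medians on days 7, 21, 28, 35 and 42 were 9.32, 7.83, 8.73, 8.62 and 8.93 CPM. All mice of days 14, 21 and 28 lay below all CTRL mice, as on day 28 did 1.34% of all genes tested, and 11 of 12 did on day 35. The log2FC was -0.88 ± 0.28 on day 7 (adjusted p = 0.00843), -1.54 ± 0.28 on day 14 (2.04e-06), a 2.92-fold lower level, and -1.31 ± 0.27 on day 21 (4.48e-05). It was -1.15 ± 0.27 on day 28 (0.000464), and the last 2 days gave -0.93 ± 0.27 (0.00613) and -0.89 ± 0.32 (0.0337). The day 42 call was lost without CTRL replicate 5 and without day 42 replicates 1, 5, 6 or 7, at adjusted p values of 0.0523 to 0.0877, and without the filter on low counts, at 0.0916.

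Gzmb, granzyme B (chr14:56258838-56262260, - strand), moved from a median of 4.13 CPM in CTRL mice (3.11 to 5.97) to 2.08 on day 7 (1.29 to 4.58). Its later medians were 2.72, 2.86, 2.13, 2.56 and 2.76 CPM on days 14, 21, 28, 35 and 42. Its log2FC was between -0.995 and -0.72 from day 7 to day 35, with adjusted p values from 0.000196 to 0.00821. The lowest value, -0.995, was on day 28, when all 12 mice lay below all CTRL mice. On day 42 the mice spread from 1.25 to 5.80 CPM and Gzmb did not pass the test (-0.60 ± 0.25, adjusted p = 0.0744). It would have been called without day 42 replicate 3, the mouse at the top of that range (-0.86, adjusted p = 0.0155), without replicate 6 (0.0403) or with the replicate number as a block (0.0468). Gzmb passed in no comparison between BLEO-IPF days. Granzyme B stands beside closely related granzyme genes on the chromosome, and how reads that match several genes were counted is not given in the sources used here.

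Gzmk, granzyme K (chr13:113171608-113225908, - strand), was the exception in direction, although at counts too few for firm statements. CTRL mice had 0 to 2 counts each, 7 in all, and 5 of the 10 were at 0. The 10 mice of day 7 had 16 counts in all, the 12 of day 14 had 26, and the 12 of day 21 had 27. There were 53 counts on day 28, 64 on day 35 and 24 on day 42. More than 3 counts were found in 0 CTRL mice, 4 of 12 mice on day 28 and 9 of 12 on day 35, where the highest mouse had 12. In a fit without the filter, which was used after its values were seen, the log2FC was 2.56 ± 0.73 on day 28 (adjusted p = 0.00761) and 2.79 ± 0.72 on day 35 (0.00412), while the other 4 days did not pass (adjusted p from 0.113 to 0.445). The day 28 call rested on replicate 5, a mouse with 23 counts, without which the log2FC was 1.87 (adjusted p = 0.0709). The day 35 call held without any single mouse. The gene body of Gzmk spans Esm1 on the opposite strand, with 0 exon bases shared.

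Prf1, perforin (chr10:61297833-61304680, + strand), had a median of 8.09 CPM in CTRL mice (4.71 to 10.7). On day 7 the median was 3.49 (1.57 to 8.74), and on day 14 it was 2.89 (0.34 to 6.65). The following medians were 2.96, 3.47, 3.69 and 4.56 CPM on days 21, 28, 35 and 42. On days 14 and 21, 11 of 12 mice lay below all CTRL mice. The log2FC was -0.97 ± 0.27 on day 7 (adjusted p = 0.00273) and -1.51 ± 0.27 on day 14 (1.31e-06), a 2.86-fold lower level. It was -1.24 ± 0.26 on day 21 (5.48e-05), then -1.01 ± 0.26 (0.00121) and -1.07 ± 0.26 (0.000972) on the next 2 days. On day 42 it was -0.89 ± 0.31 (0.0256), a call that was lost without day 42 replicates 1, 5 or 7 (adjusted p from 0.0523 to 0.0668) and without the filter (0.0661).

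Nkg7, the granule membrane gene (chr7:43437073-43438249, + strand), was lowest on day 14 and nearer to CTRL afterwards. Its median was 7.30 CPM in CTRL mice (4.50 to 9.77), 4.55 on day 7 and 3.52 on day 14 (0.59 to 7.01). It was then 4.48, 4.90 and 5.47 on the next 3 days, and 5.75 on day 42 (3.18 to 10.4). The groups overlapped on all days. Nkg7 was called lower on days 7, 14, 21 and 28, with a log2FC of -0.98 ± 0.22 on day 14 (adjusted p = 0.000104) and -0.59 ± 0.22 on day 28 (0.0231). On day 35 it was -0.47 ± 0.22 (0.0951; called at 0.00885 when only those 2 groups were fitted) and on day 42 -0.29 ± 0.25 (0.429), with 1 mouse above all CTRL mice. Day 42 was 0.70 ± 0.24 above day 14 (adjusted p = 0.0220), the sole member called in that comparison, where 15.2% of all genes were called higher. Without day 42 replicate 3 the difference was 0.52 (0.112), and in a fit of only the groups compared it missed the threshold as well (0.110).

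Eomes, the T-box factor (chr9:118478212-118486132, + strand), is a low gene here, with a median of 2.94 CPM in CTRL mice (1.96 to 4.05). Its medians were 1.63, 1.32, 1.37, 1.70, 1.72 and 2.08 CPM on days 7 to 42 in order. The log2FC was -0.80 ± 0.28 on day 7 (adjusted p = 0.0151) and -1.16 ± 0.27 on day 14 (0.000149). The next 2 days gave -1.03 ± 0.27 (0.000889) and -0.80 ± 0.27 (0.0118). On day 35 it was -0.62 ± 0.26 (0.0671), which passed without day 35 replicate 5 (0.0347) and when only the groups compared were fitted (0.00483). On day 42 it was -0.81 ± 0.31 (0.0466), and 3 of 7 mice lay below all CTRL mice. This call was lost without CTRL replicates 1, 2, 5, 7 or 9 or day 42 replicates 1, 5 or 7, with adjusted p values of 0.0585 to 0.128, and also without the filter (0.0933), with library size scaling (0.0563) and with upper quartile scaling (0.05001). Eomes shares 118 exon bases with Gm33460 on the opposite strand, which held 2.31% as many counts.

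**Figure D2:**
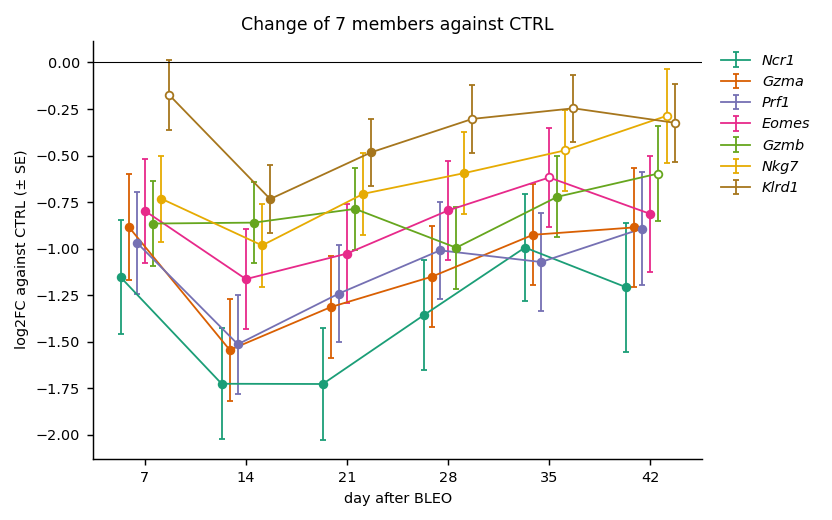
Fitted log2FC against CTRL (y axis, bars are SE) of the 7 tested members on each day (x axis); filled points passed the adjusted p threshold of 0.05 and open points did not. Ncr1 reaches -1.73 on days 14 and 21, whereas Klrd1 does not go below -0.73.

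Between BLEO-IPF days, few members differed. Day 14 against day 7 called Klrd1 (-0.56 ± 0.18, adjusted p = 0.0252), against 7.53% of all genes called lower and 9.44% higher; the call was lost without day 14 replicates 1, 4 or 8 (0.0532 to 0.0588), and Prf1 was called without day 14 replicate 5 (0.0414). Day 35 lay above day 14 for Ncr1 (0.73 ± 0.29, adjusted p = 0.0374), Klrd1 (0.49 ± 0.18, 0.0208) and Nkg7 (0.51 ± 0.22, 0.0477), 3 of 7 members, while 19.9% of all genes were called higher and 23% lower. These calls sat close to the threshold. Ncr1 lost its call in 9 of 24 refits without 1 mouse (adjusted p up to 0.0846), Nkg7 in 15 (up to 0.107) and Klrd1 in 2, those without day 14 replicates 4 or 8 (up to 0.0535), whereas Gzma gained a call in 10 of 24 (down to 0.0278), Prf1 without day 14 replicate 5 (0.0369) and Eomes without day 14 replicate 9 (0.0384). In day 42 against day 14, where 18.8% of all genes were called lower, Gzma was called without day 14 replicate 5 or day 42 replicate 7 (0.0478 and 0.0485), Prf1 without day 14 replicate 5 (0.0218) and Klrd1 without day 14 replicates 2 or 7 (0.0478 and 0.0394). Day 42 against day 35 called 0 members, and 0.00% of all genes were called in either direction. The 11 other pairs of BLEO-IPF days called 0 members as well. Against day 7, the genes called lower and higher were 6.34% and 7.47% for day 21, 9.01% and 8.85% for day 28, 13.7% and 10.4% for day 35, and 9.88% and 7.82% for day 42. Against day 14 they were 0.567% and 0.444% for day 21 and 13.1% and 11.3% for day 28. Against day 21 they were 0.308% and 0.395% for day 28, 10.5% and 7.79% for day 35, and 6.49% and 2.81% for day 42. Against day 28 they were 0.450% and 0.808% for day 35 and 0.727% and 0.0370% for day 42. These counts rest on the mice as they are, and single mice were not left out in these pairs.

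Whether the members moved unequally was tested by ratios of counts within a mouse, which need no scaling between libraries. A pseudocount of 0.5 was added to each count, and each day was compared with CTRL by a 2-sided permutation test of the mean log2 ratio, adjusted over 30 tests. The ratio of Nkg7 to Ncr1 was 0.42 ± 0.16 (SD, n = 10) in CTRL mice and 1.41 ± 0.69 (n = 12) on day 14, 0.99 higher (adjusted p = 0.000257 by permutation). It was higher on all 6 days, by 0.44 to 1.15, and on days 21 and 42 every mouse lay above all CTRL mice. The ratio of Klrd1 to Ncr1 was added after the values were seen, for 2 members at the ends of the range of change, and is given as a description. It was 0.54 ± 0.38 in CTRL mice and 1.60 ± 0.31 on day 7, with 10 of 10 mice above all CTRL mice, and its mean was above CTRL on the 6 days by 0.85 to 1.42.

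Perforin was set against NKp46 and granzyme B against granzyme A in the same way. Prf1 to Ncr1 was 0.50 ± 0.22 (SD, n = 10) in CTRL mice and was higher on day 21 by 0.61, on day 28 by 0.41 and on day 42 by 0.41 (adjusted p = 0.00187, 0.00702 and 0.0393 by permutation). The other 3 days did not pass, at 0.15, 0.38 and -0.03. Gzmb to Gzma was higher on day 14 by 1.04 (adjusted p = 0.00103) and on day 21 by 0.65 (0.00112; both permutation tests), with 9 and 8 of 12 mice above all CTRL mice, and did not pass on the other days. Gzmk to Gzma was higher on all 6 days, by 1.75 to 3.05, but with Gzmk at 0 in many libraries the pseudocount stands in for it, so this ratio also rises as Gzma falls.

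**Figure D3:**
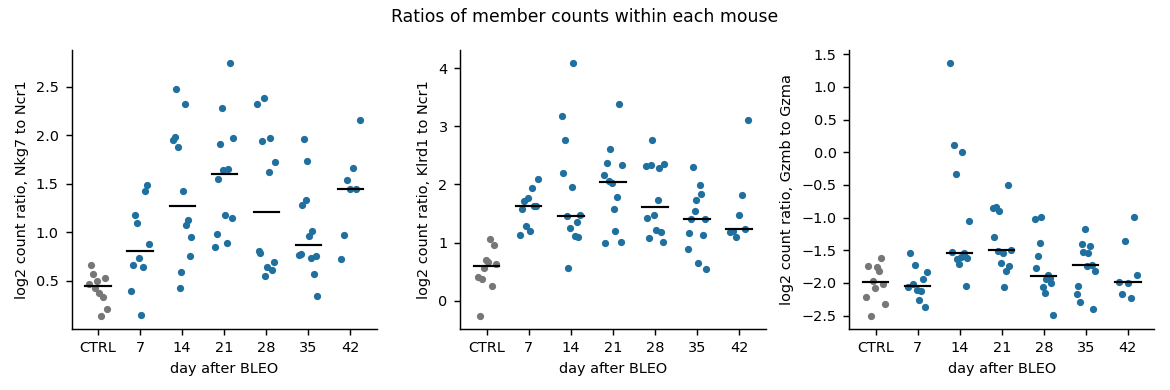
Log2 ratio of counts plus 0.5 within each mouse (y axes) for Nkg7 to Ncr1, Klrd1 to Ncr1 and Gzmb to Gzma, by group (x axis: CTRL, then day after BLEO); points are mice and bars are group medians. All 10 mice on day 7 lie above the CTRL mice for Klrd1 to Ncr1, and Gzmb to Gzma is highest in single mice of day 14.

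T cells are the other main source of these genes, and Ncr1 was therefore set against Cd3e, a subunit of the T cell receptor complex. The log2 ratio of Ncr1 to Cd3e was 0.13 ± 0.34 (SD, n = 10) in CTRL mice and -1.67 ± 1.11 (n = 12) on day 14, lower by 1.79 (adjusted p = 0.0001 by permutation). It was lower on all 6 days, by 0.99 to 1.79, with all mice of days 7, 21 and 42 below all CTRL mice. Of 15 T cell markers tested, 0 were called higher on any day, and 1, 3, 2, 1, 1 and 0 were called lower over the days in order. Over all genes, 20.9%, 29.9%, 25.8%, 19.2%, 13% and 11.0% were called lower on these days. The 3 markers called lower on day 14 were Cd8a (-0.69, adjusted p = 0.00558) and Cd8b1 (-0.89, 0.00114), the chains of the CD8 coreceptor, and Themis (-0.73, 0.00691), which takes part in T cell development. The most abundant T cell genes, Lck, Cd4 and Trac, had log2FC values of -0.32, 0.24 and 0.24 on day 14 and did not pass. The summed level of the T cell list ranged from 78.5 to 165 CPM in CTRL mice and from 27.03 to 210.1 on day 14, so its range widened in both directions. Regulatory T cell markers rose, 3 of 4 on days 7 to 35 and 1 on day 42, led by Foxp3, the lineage factor, from 0.50 ± 0.17 CPM (SD, n = 10) in CTRL to 3.45 ± 2.16 (n = 12) on day 14 (log2FC 2.77, adjusted p = 9.05e-08). Il2ra, the IL-2 receptor alpha chain, rose by 1.23 on that day (6.65e-05), and Ikzf2 was at -0.09. On day 14, 32.4% of all genes were called higher.

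Other NK cell receptors, from a list of 20 genes found of which 18 were tested, were called lower in 9, 12, 12, 9, 7 and 4 cases over the 6 days in order, and higher in 2, 2, 1, 1, 1 and 1. Over all genes, 24.8%, 32.4%, 28.3%, 24%, 16.9% and 13.6% were called higher on these days. The list's median log2FC was -0.65, -0.999, -0.92, -0.58, -0.57 and -0.55. Klrb1c, which encodes NK1.1, had a log2FC of -1.20 ± 0.21 on day 14 (adjusted p = 1.50e-06) and -0.91 ± 0.25 on day 42 (0.00476). Klra8 (Ly49H) fell by 2.00 on day 14 (1.53e-08), and Klra4 (Ly49D) fell by 1.74 (3.33e-06), with the limit that Ly49 genes are close copies whose reads may be split among them. S1pr5, a sphingosine 1-phosphate receptor of mature NK cells, fell by 1.53 on day 14 (1.71e-05). Klre1 was lower on all 6 days, with a log2FC of -1.08 on day 42 (0.0148).

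Some genes of this list did not pass or were called higher. Il2rb, the shared subunit of the IL-2 and IL-15 receptors and the most abundant of the list, was at -0.34 on day 14 (adjusted p = 0.0870), was lower on day 21 (-0.45, 0.0243) and day 42 (-0.56, 0.0352), and did not pass on the other days. Il18rap, an IL-18 receptor subunit, was higher on day 14 (0.34, 0.0491). Cd244a, the receptor 2B4, was higher on days 7, 21 and 28 (0.35, 0.34 and 0.28, adjusted p = 0.0106, 0.00796 and 0.0353). Klrb1b was higher on days 7, 35 and 42 (0.42, 0.51 and 0.54, adjusted p = 0.0364, 0.0142 and 0.0267). Klrg1, an inhibitory receptor of mature NK and effector T cells, was higher on day 14 (0.98, 0.00571). Klrk1, which encodes NKG2D, was at -0.35 on day 14 (0.0953).

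**Figure D4:**
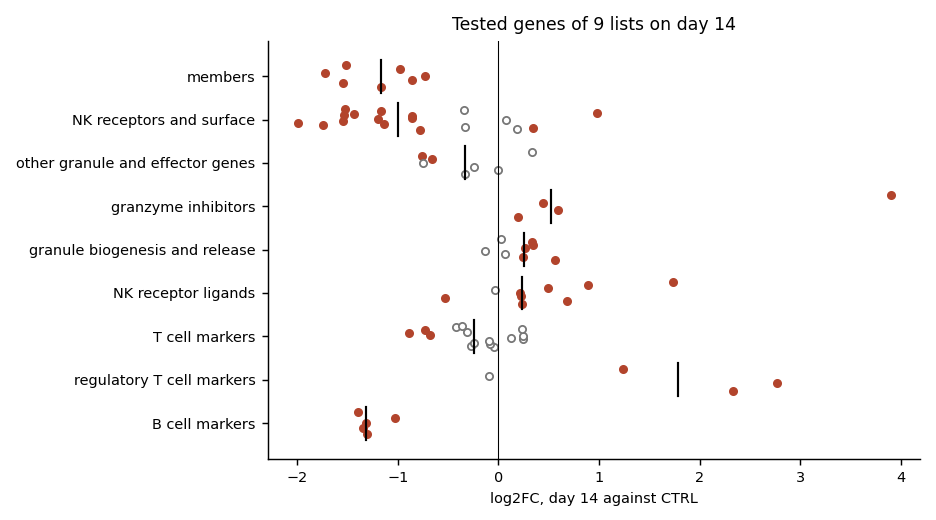
Fitted log2FC on day 14 against CTRL (x axis) of every tested gene of 9 lists (y axis); filled points passed the adjusted p threshold of 0.05, open points did not, and the vertical bar is the list's median. The medians of the members and of the NK receptors lie at -1.16 and -0.999, that of the T cell markers at -0.24 and that of the granzyme inhibitors at 0.52.

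Of 14 further effector genes found, 7 passed the filter, and 1, 2, 1, 1, 0 and 0 were called lower on the 6 days in order, with 0 called higher. The shares of all genes called lower or higher on each day, given above, apply to this and the following lists. No list's count was tested against these shares. Gzmm, granzyme M, was lower on days 14, 21 and 28, with a log2FC of -0.66 on day 14 (adjusted p = 0.00464). Tnfsf10, the death ligand TRAIL, which many lung cells make, went from 205 ± 27.2 CPM (SD, n = 10) in CTRL to 121 ± 65.8 (n = 12) on day 14 (-0.76, 0.00132), was lower on day 7 too (-0.79, 0.00265), and did not pass later. Ccl5, a chemokine of NK and T cells, and Ctsw, cathepsin W, were at -0.33 and -0.24 on day 14 and passed on neither day 14 nor day 42.

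Among the genes that make and release granules or restrain granzymes, calls were in the other direction. Of 8 genes of granule biogenesis and release, 4, 5, 4, 3, 4 and 5 were called higher and 0 lower on the 6 days. Ctsc, cathepsin C, which activates granzymes, rose by 0.56 on day 14 (adjusted p = 2.70e-08) and by 0.58 on day 42 (2.64e-06). Lamp1, a lysosomal membrane protein, and Srgn, the granule proteoglycan serglycin, rose by 0.25 (1.80e-05) and 0.27 (0.00708) on day 14. All of these are made by macrophages and other cells as well, and Ctsc at 317 CPM in CTRL was far above any member. Of 4 granzyme inhibitors, 2, 4, 4, 3, 2 and 3 were called higher and 0 lower. Serpinb9, an inhibitor of granzyme B, rose from 176 ± 15.5 CPM (SD, n = 10) to 240 ± 48.4 (n = 12) on day 14 (0.45, adjusted p = 0.000311) and to 284 ± 46.1 (n = 7) on day 42 (0.69, 2.28e-05). Serpinb6b, an inhibitor of granzyme A, rose by 0.59 on day 14 (0.000250) and by 0.74 on day 42 (0.000391), and Serpinb6a rose by 0.20 on both days (0.00626 and 0.0413). Serpinb9b rose by 3.90 on day 14 (8.16e-11) and was at 0.53 on day 42 (0.544).

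Ligands of NK receptors were mostly higher, in 5, 7, 7, 7, 6 and 6 of 9 tested genes on the 6 days, while 1, 1, 1, 0, 0 and 0 were lower. Ulbp1 and Raet1e, stress ligands of NKG2D, had log2FC values of 1.73 (adjusted p = 6.03e-12) and 0.89 (0.000392) on day 14. The class I genes H2-D1 and H2-K1, ligands of inhibitory receptors, and B2m, their shared light chain, were higher by 0.22, 0.22 and 0.24 on day 14 (0.00773, 0.0416 and 0.0206). Clec2d, a ligand of Klrb1 receptors, was the gene called lower, on days 7, 14 and 21 (-0.35, -0.53 and -0.32, adjusted p = 0.00586, 1.16e-05 and 0.00824).

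Transcription factors and cytokines of NK cells were mixed. Of 8 factors, 3, 4, 2, 2, 1 and 1 were called higher and 2, 2, 3, 1, 1 and 0 lower. Over all genes, 24.8%, 32.4%, 28.3%, 24%, 16.9% and 13.6% were called higher on these days. The shares called lower were 20.9%, 29.9%, 25.8%, 19.2%, 13% and 11.0%. Tbx21, which encodes T-bet, the T-box factor that acts beside Eomes, was lower on days 7, 14 and 21 (-0.80, -0.95 and -0.77, adjusted p = 0.0217, 0.00263 and 0.0168). Prdm1 was lower from day 7 to day 35, with log2FC values from -0.66 to -0.37, and was at -0.31 on day 42 (0.107). Nfil3, a factor needed for NK cell development, had the largest change of the list and was higher from day 7 to day 28, by 1.54 on day 7 (7.06e-05) and 2.40 on day 14 (1.31e-09). On day 42 it was at 0.90 (0.0535). Id2 rose on all 6 days, by 0.42 to 0.52. Zeb2 rose on day 14 (0.27, adjusted p = 0.0108), and Runx3 rose on days 7 and 14 (0.50 and 0.59, 0.0161 and 0.00190). Nfil3, Id2, Zeb2 and Runx3 are made by other leukocytes too. Of 9 cytokine and receptor genes tested, 2, 2, 4, 3, 2 and 2 were higher and 3, 3, 3, 1, 1 and 2 lower. Il15, the survival factor of NK cells, was lower on day 7 (-0.45, adjusted p = 0.00250) and at -0.14 on day 14 (0.307). Its presenting receptor Il15ra was lower on all 6 days, with -0.54, -0.53 and -0.37 on days 7, 14 and 42 (adjusted p = 8.53e-06, 2.28e-06 and 0.0109). Il12b and Il18r1, a subunit of IL-12 and the IL-18 receptor, were higher on all 6 days, by 1.37 to 2.16 and by 0.39 to 0.64. Il2rg was higher on day 21 (0.31, adjusted p = 0.00608) and Il18 on days 21 and 28 (0.56 on both, 0.00670 and 0.00874). On the other days they did not pass, with log2FC values from 0.02 to 0.34.

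Markers of other cell types changed in both directions. All 5 B cell markers were called lower on days 14 and 21 and 4 on day 7, but 0 from day 28 on. Their summed level ranged from 106 to 220 CPM in CTRL mice and from 19.4 to 118 on day 14. Cd79b and Ms4a1 fell by 1.32 and 1.40 on day 14. Cells washed out with the lavage fluid are not part of these values. Of 7 markers of gamma delta T and innate lymphoid cells, 3, 4, 4, 3, 3 and 2 were lower and 1, 1, 1, 1, 2 and 1 higher on the 6 days. Areg, made by many injured tissues, was higher on all 6 days, by 1.03 to 1.31, and Sox13 was lower on day 14 by 0.65. Mast cell and basophil markers were lower in 1, 3, 3, 1, 1 and 1 of 4 tested genes, with Gata2, Ms4a2 and Cma1 at -0.71, -1.62 and -1.47 on day 14. Of 4 markers of plasmacytoid dendritic cells, Siglech and Ccr9 were lower on day 14, and Bst2 was higher on days 14 and 21. Neutrophil markers were called higher in 2 of 5 cases on day 14, S100a8 among them (0.77), and in 0 on other days. The median of their summed level was not raised on day 14, at 64.4 CPM against 74.1 in CTRL mice. The highest mouse was at 529 CPM on day 14 and at 106 in CTRL. Among 7 lung tissue markers, Sftpc of alveolar type II cells and Scgb1a1 of club cells fell by 0.88 and 1.61 on day 14, Ager of alveolar type I cells was at -0.16, and Col1a1, the main fibrillar collagen of fibroblasts, and Marco, of macrophages, rose by 2.90 and 1.63. All members are read as shares of a library whose cell makeup changed in these ways. The part of that change in the fall of the 7 members that passed the filter was not tested.

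Within groups, the members went together from mouse to mouse. After the group means were taken off, Pearson's r of log2 CPM over the 75 mice was between 0.47 and 0.90 for the 21 pairs of tested members, with a median of 0.69. The points of a pair share the library and its scaling factor. The gene most like Ncr1 of all 16221 was Gzma (r = 0.93 over all mice, and 0.90 less group means), and the next were Prf1 (0.90) and Klra8 (0.87). For Gzma they were Ncr1, Klra8 and Prf1. For Prf1 they were Gzma, Ncr1 and Klrb1c, and for Gzmb they were Klrb1c, Prf1 and S1pr5, at lower values of 0.77, 0.76 and 0.75. Nkg7 was most like Gzma, Ms4a4b and Prf1. Klrd1 and Eomes stood apart in this respect. The genes most like Klrd1 were Ms4a4b, Grap2 and Btla (0.84, 0.82 and 0.82), and those most like Eomes were Ms4a4b, Gpr174 and Spn (0.74, 0.72 and 0.72), with no member among them. Less group means, Klrd1 was most like Klrk1, Ms4a4b and Ifi209, Gzmb most like Tbx21, Ccl5 and Nkg7, and Eomes most like Gimap7, Ms4a4b and Spn. Rnase6 (with Gzma, 0.89, and Nkg7, 0.82), Dtx1 (with Prf1, 0.83), Ptprcap (with Nkg7, 0.82) and H2-Ob (with Ncr1, 0.85) also appeared in these lists.

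Mice of the same day differed widely. The coefficient of variation was highest on day 14 for Ncr1 (66.7%), Gzma, Prf1, Nkg7 and Klrd1, on day 42 for Gzmb (60%) and Eomes (61%), and on day 28 for Gzmk. On day 14, replicate 8 had the lowest value of 5 of the 7 members, with 0.084 CPM of Ncr1, 0.50 of Gzma, 0.50 of Gzmb, 0.34 of Prf1 and 0.59 of Nkg7. In Ncr1 and Gzma, replicates 1, 3 and 4 followed, with 0.30, 0.50 and 0.57 CPM of Ncr1 and 0.89, 2.30 and 1.54 CPM of Gzma. Replicate 10 had 5 members among the 4 lowest mice, against 3 for replicate 3, and the lowest Eomes, at 0.31 CPM. This mouse had 1869 CPM of Col1a1 and 8954 of Sftpc. Replicate 5, at the other end, had 3.13 CPM of Ncr1, 10.5 of Gzma and 6.65 of Prf1. Col1a1 stood at 2860, 4465, 4163 and 3632 CPM in replicates 8, 1, 3 and 4, against 1444 in replicate 5, while CTRL mice ranged from 233 to 443. Replicate 2 of that day had 3266 CPM of Col1a1 as well, but 8.60 CPM of Gzma and 7.01 of Nkg7, with no member among the 4 lowest mice. Sftpc was 4476, 3342, 4065 and 5882 CPM in replicates 8, 1, 3 and 4, against 12870 in replicate 5, and Cd3e was 1.09, 2.19, 5.69 and 2.76 against 3.36. The part of these levels in the members' values was not tested. On day 7, replicate 10 had the lowest value of 6 of the 7 members and 1422 CPM of Col1a1, where the mice of that day ranged from 692 to 1525. On day 21, replicate 1 was lowest in 6 members with 1978 CPM of Col1a1, below 3 mice of that day with 3119 to 4910. On day 28, replicate 1 was lowest in 6 members with 2675 CPM of Col1a1, and replicate 5 had 3274. On day 42, replicate 7 had the lowest value of 5 members and 762 CPM of Col1a1, above the other 6 mice of that day.

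After these values were seen, the relation of Ncr1 to Col1a1 was computed across the mice of each BLEO-IPF day, on log2 CPM with 0.1 added, as 6 relations with p-values by permutation. Since values of these mice prompted it, none of these p-values is an independent test. On day 14, r was -0.72 (permutation p = 0.00936, adjusted 0.0187) and Spearman's rho was -0.76 (p = 0.00600, adjusted 0.0180; n = 12), and without the 2 mice farthest from the median of Col1a1 r was -0.61. On day 28, r was -0.81 (permutation p = 0.00202, adjusted 0.0121) and rho was -0.82 (p = 0.00168, adjusted 0.0101; n = 12), with r at -0.66 without the 2 farthest mice. On day 21, r was -0.76 (permutation p = 0.00522, adjusted 0.0157), rho was -0.59 (p = 0.0489, adjusted 0.0977; n = 12) and r without the 2 farthest mice was -0.51. On day 35, r was -0.35 and rho was -0.27 (permutation p = 0.279 and 0.393, adjusted 0.279 and 0.472; n = 12), and r was -0.15 without the 2 farthest mice. On day 7, r was 0.39 and rho was 0.36 (permutation p = 0.262 and 0.316, adjusted 0.279 and 0.472; n = 10), and r turned to -0.23 without the 2 farthest mice. On day 42, r was -0.65 and rho was -0.21 (exact permutation p = 0.117 and 0.662, adjusted 0.176 and 0.662; n = 7), and r turned to 0.26 without the 2 farthest mice, so the value rested on them. The mouse with the highest Col1a1 was not the mouse with the lowest Ncr1 on days 7, 14, 28 and 35. On day 21 it was the same mouse, replicate 10, with 4910 CPM of Col1a1 and 0.56 of Ncr1. On day 42 it was the same mouse as well, replicate 7, with 762 CPM of Col1a1 and 0.68 of Ncr1. Ncr1 and Col1a1 are shares of the same library.

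**Figure D5:**
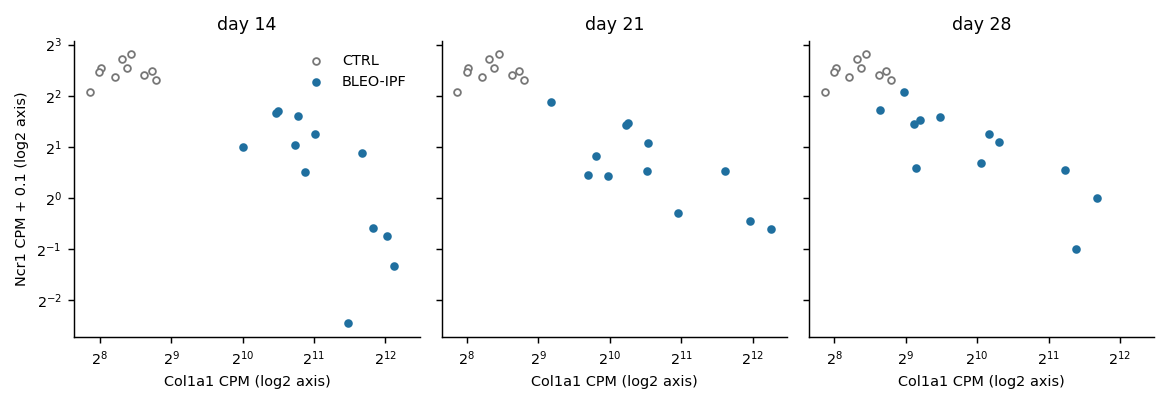
Ncr1 (y axis, CPM plus 0.1, log2 axis) against Col1a1 (x axis, CPM, log2 axis) in each BLEO-IPF mouse of days 14, 21 and 28 (filled) and each CTRL mouse (open, the same 10 in each panel). These are the 3 days with the lowest r, at -0.72, -0.76 and -0.81, and the relation was computed after values of these mice were seen.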

How the data were processed

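RNA of the right inferior lung lobe was sequenced by the authors from directional poly(A) libraries, and reads were aligned with STAR 2.7.0f to GRCm38 with Ensembl release 96. The deposited values are raw counts per gene, 1 column per mouse; the counting program, its strand setting and its treatment of multiply mapped reads are not given in the sources used here. All 55536 identifiers were found in that annotation, and 0 columns lacked a sample. Over 375 pairs of mice of the same group, the lowest chi-square per degree of freedom was 4.11, so none was treated as a repeat deposit. Groups were taken from the labels.

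Counts were fitted with edgeR 4.0.16 in R 4.3.3 (TMM factors, filterByExpr, robust quasi-likelihood F test, 7 group means, all 75 mice). CPM are TMM-scaled, and log2 CPM for correlations used a prior count of 2. Ratios used 100000 permutations, or exact enumeration for day 42. The steps were tested on simulated data. Alternatives were DESeq2 1.42.0, library size and upper quartile scaling, no filter, a fit of only the groups compared, a replicate block, and each mouse left out. Permutations and plots used Python 3.11.15, scipy 1.17.1 and matplotlib 3.10.9.

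The members and the gene lists were chosen with earlier results of these data known. The rule named all members and, of each list, the 3 most abundant tested genes and those called against their list's direction on days 14 or 42; other genes of the lists were named after their values were seen, and the values of some list genes are not reported here.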

Additional observations from a re-analysis of the deposited data

Results flagged for a closer look

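The value of 1 gene was singled out by a test of the difference between days under the same contrast with CTRL: the log2FC of Nkg7 on day 42 lay 0.70 above that on day 14 (edgeR's quasi-likelihood test, adjusted p = 0.0220), as described above with the mouse it rested on. Among 24 sets of values in groups of 7 or 10 mice, 0 held a mouse that stood apart by Dixon's test. Days 14, 21, 28 and 35, with 12 mice each, were not among these sets, so Dixon's test says nothing of single mice there.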

How the results depend on the processing

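Members called lower on days 7, 14, 21, 28 and 35 stayed within 1.5 times their count under DESeq2, library size or upper quartile scaling, no filter, only the groups compared, the replicate block and each mouse left out. On day 42 the 4 members called became 1 without the filter, where more genes were tested, and ranged from 1 to 5 when a mouse was left out; Ncr1 was the member called in every case. For day 42 against day 14 the 1 member called became 0 when only the groups compared were fitted, and 0 to 3 when a mouse was left out. Genes called on day 42 went from 3982 to 5976 when only the groups compared were fitted. The causes were not tested.

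Same-numbered mice did not deviate together (median r -0.008 over 204 pairs, against 0.005 for other pairs), so the number pairs nothing. With the replicate block, the ratio of Prf1 to Ncr1 on day 35 turned from -0.03 to 0.026 with no call either way, that ratio lost its call on day 42 (0.39, adjusted p = 0.198), Gzmb to Gzma gained one on day 35 (0.30, 0.0346), and Eomes lost its call on day 42 (0.0703). A pseudocount of 1 changed no call among the 30 ratios. Depth limits Gzmk most, with 0 to 23 counts per library.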
